A study of Arabidopsis thaliana with 40 samples.

Results

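The change in the shoot apex of the Arabidopsis thaliana mutant lfy-12 between day 3 and day 7 after a move to long days was described from 4 arrays of 40, the 2 arrays titled day 7 and the 2 titled day 3. The arrays were chosen by genotype and day, with earlier results of these data known. The choice of days 7 and 3 also avoided 2 lfy-12 arrays described below, day 0 replicate 2 and day 5 replicate 2. All plants were kept at 21 °C, first in 30 short days, each with 9 h light and 15 h dark, and afterwards in long days, each with 16 h light and 8 h dark. Apices were harvested at days 0, 3, 5 and 7 of the long days, with 2 arrays per harvest. The same 4 days were sampled in the wild-type lines Col (Columbia) and Ler (Landsberg erecta) and in the mutants co-2 and ft-2, so that the series holds 5 genotypes and 20 groups. The groups used here are lfy-12 at day 7 and day 3, then Col, Ler, co-2 and ft-2 at the same days, all under the same light and temperature. The labels do not give the backgrounds of the mutants, but lfy-12 is known to be in Columbia, whereas co-2 and ft-2 are in Landsberg erecta. The labels also do not say whether replicates came from separate plants, so the p-values cover only the spread among these arrays, and precision is limited by their small number.

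LEAFY (LFY) is a plant transcription factor that gives the primordia on the flanks of the shoot meristem a floral fate and switches on floral organ identity genes. CONSTANS (CO) reads day length in the leaf, and FLOWERING LOCUS T (FT) is the mobile protein that carries the signal to the apex, where it acts with the bZIP factor FD. In lfy mutants this signal still reaches the apex, but shoots and leaf-like structures form where early flowers would stand. The comparison asks which transcripts of the apex still change late in the response when LFY activity is lost. No probe set lists LFY as its gene, so the mutated gene itself was not checked here.

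All levels are log2 signal as deposited, so that a difference of 1 is a 2-fold change, and each difference is day 7 minus day 3. The lfy-12 replicates were close: the SD of the difference between the 2 arrays over all probe sets was 0.171 at day 7 and 0.164 at day 3, near the low end of the range from 0.162 to 0.306 over all 20 groups. The lfy-12 array of day 5 replicate 2 stood apart on 9 probe sets high in Ler. Its median excess over Col of the same day was 9.01% of the gap from Col to Ler on the linear scale. The other 7 lfy-12 arrays lay between -0.498% and 0.413%. The lfy-12 arrays of day 0 differed more from each other, with an SD of 0.252. Neither enters the difference between day 7 and day 3, although both contribute to the shared estimate of the spread.

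Between day 3 and day 7, 425 of 22746 probe sets rose in lfy-12 (1.87%) and 754 fell (3.31%), together 1179 (5.18%) at a Benjamini-Hochberg adjusted p under 0.05 in limma. Changes of more than 2-fold leaned further towards falls, with 65 probe sets higher (0.286%) and 209 lower (0.919%). The median difference over all probe sets was -0.002. A call itself makes overlap between the days unlikely, and the share without overlap among all probe sets was not counted. Hence it adds no support to the calls that day 7 and day 3 arrays did not overlap on 1178 of the 1179 called probe sets. The count depended on each library: it fell to 701 without day 3 replicate 1, 713 without day 3 replicate 2, 659 without day 7 replicate 1 and 790 without day 7 replicate 2. Of the called probe sets 612 list no single gene, and the others stand for 566 of 13350 genes (4.24%), 204 higher (1.53%) and 362 lower (2.71%). The gene groups below were matched on symbols and synonyms. Of the 1552 measured genes with a symbol other than the locus name, 120 were called, 43 higher and 77 lower. That is a larger share than over all genes, so the shares over all genes given beside these groups are a low standard for them.

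**Figure D1:**
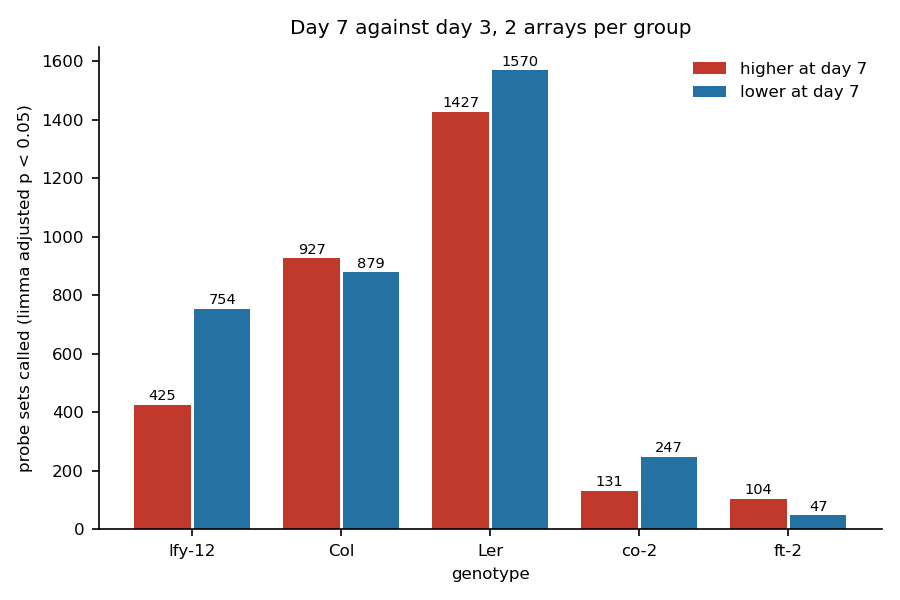
Bars give the number of probe sets called higher (red) and lower (blue) at day 7 against day 3 in each genotype, at a limma adjusted p under 0.05, with 2 arrays per group. In lfy-12, 425 were higher and 754 lower; in Col, 927 were higher and 879 lower; ft-2 had the fewest calls, 151 in all.

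The genes that rose most in lfy-12 included a terpene enzyme, a wax enzyme, a ribosomal protein and a MADS-box factor linked to flowering. Genes named from the largest changes had to show no overlap between the days, so their separation was set by that rule. AT5G44630, a sesquiterpene synthase that makes floral scent compounds, stood at 8.99 and 8.74 on the day 7 arrays, against 6.07 and 5.69 on the day 3 arrays. Both day 7 arrays lay well above both day 3 arrays, and the difference of 2.99 ± 0.19 (SE, n = 2 arrays each) is a 7.92-fold rise (limma adjusted p = 1.41e-11). WSD1, a wax ester synthase of the stem surface, had 6.72 and 6.51 at day 7, against 4.01 and 4.19 at day 3, a difference of 2.52 ± 0.21 (adjusted p = 3.02e-09). Its day 0 levels, 4.24 and 4.38, were about as low as those of day 3. The median of the bacterial control probe sets on the day 3 arrays was 4.06 and 4.21, so WSD1 was at background there and its difference is a lower bound on the rise. AT3G28500, which encodes a P2-type acidic ribosomal protein, reached 10.66 and 10.63 at day 7, against 8.34 and 8.21 at day 3, a difference of 2.37 ± 0.13 (adjusted p = 1.6e-12). Its day 7 arrays were almost equal and far above both day 3 arrays.

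CYP71B22, a cytochrome P450, had 7.97 and 7.80 at day 7, against 5.87 and 5.62 at day 3, a difference of 2.14 ± 0.17 (adjusted p = 2.06e-09). AGL42, a MADS-box factor close to SOC1 that promotes flowering, had 7.81 and 8.12 at day 7, against 6.66 and 6.35 at day 3, a difference of 1.46 ± 0.18 (adjusted p = 1.71e-06). By the naming rule, every day 7 array was above every day 3 array in both genes. BAT1, an acyltransferase that modifies brassinosteroids, had 6.19 and 6.85 at day 7, against 5.22 and 5.40 at day 3, a difference of 1.21 ± 0.17 (adjusted p = 1.98e-05). Of the other 9 of the 15 largest rises, which carry only a locus name, AT4G19430 rose by 2.47 ± 0.19 and AT4G00870 by 2.08 ± 0.15. Their levels at day 3, 4.53 and 4.79 for AT4G19430 and 4.39 and 4.24 for AT4G00870, were close to the lower quartile of that day's mean signals, 4.75.

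AT3G29970 and Prx37 stood much higher on 1 of the day 7 arrays than on the other. AT3G29970 had 6.32 and 8.34 at day 7, against 5.89 and 5.73 at day 3, and its difference of 1.52 fell to 0.51 (adjusted p = 0.209) without day 7 replicate 2. Prx37, a peroxidase, had 5.34 and 6.81 at day 7, against 5.16 and 5.32 at day 3, and its difference of 0.83 shrank to 0.09 without the same array; its call was also lost without either day 3 array. AT5G52760 rose by 1.36 ± 0.28, and without day 3 replicate 2 it differed by 1.13 (adjusted p = 0.0666), which was not called.

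**Figure D2:**
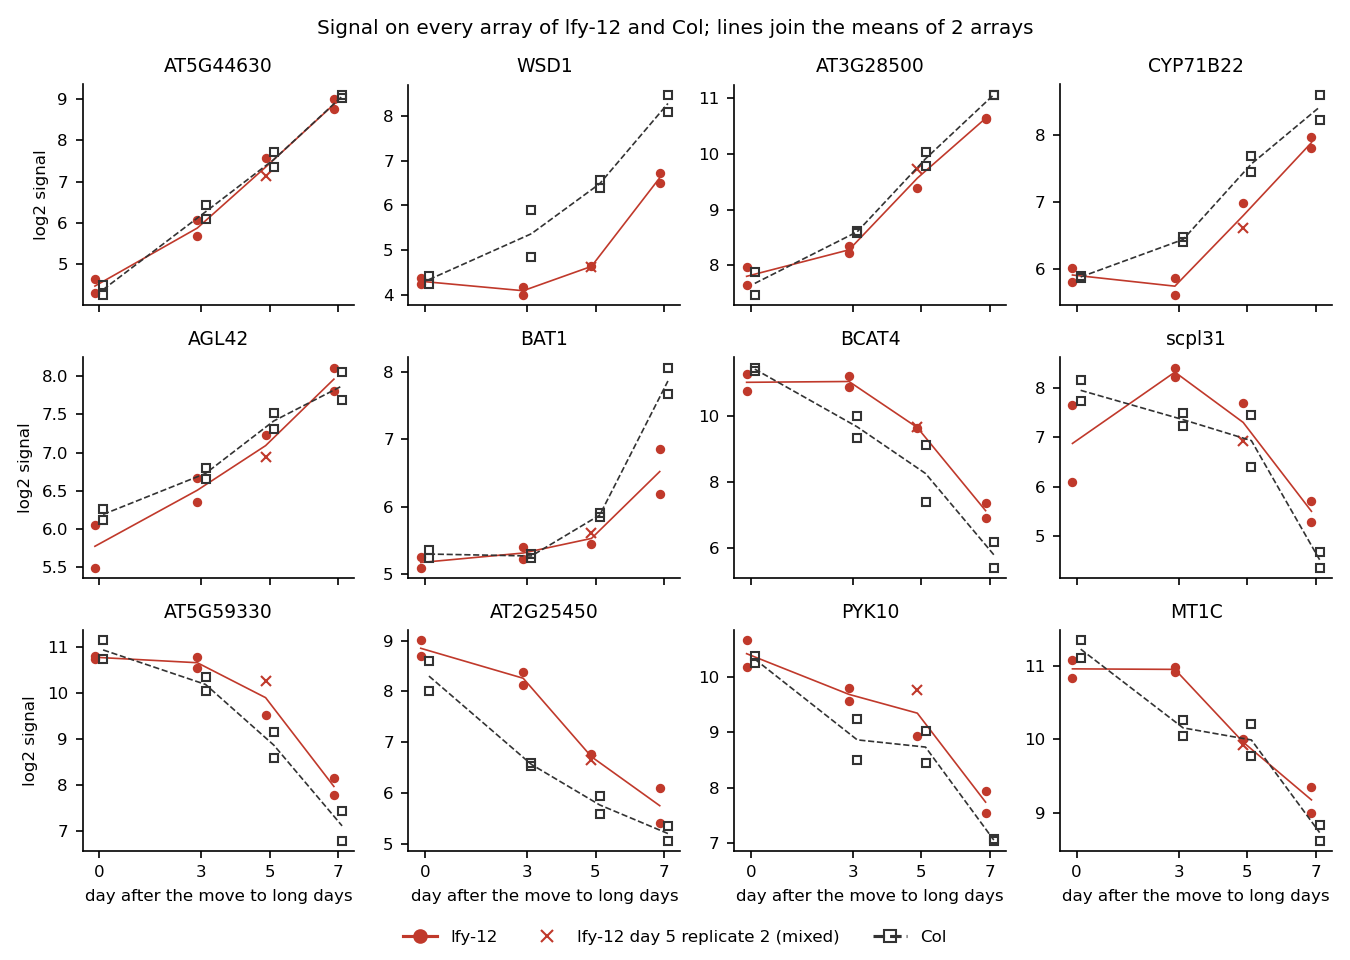
Each panel gives the log2 signal of 1 gene on every lfy-12 array (red circles, with the mixed day 5 replicate 2 as a cross) and every Col array (open squares), by day after the move to long days; lines join the means of 2 arrays. AT5G44630 and AT3G28500 climb in both genotypes, WSD1 stays near 4 to 5 in lfy-12 until day 5, and BCAT4 drops at day 7 to 7.36 and 6.91 in lfy-12.

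The largest fall of a named gene was in glucosinolate synthesis. BCAT4, the aminotransferase that starts the chain elongation of methionine for aliphatic glucosinolates, had 7.36 and 6.91 at day 7, against 10.90 and 11.21 at day 3. The arrays of the 2 days were far apart, and the difference of -3.92 ± 0.32 is a 15.1-fold fall (adjusted p = 2.7e-09). AT2G25450, whose dioxygenase product acts on the side chains of glucosinolates, had 5.42 and 6.10 at day 7, against 8.13 and 8.39 at day 3, a difference of -2.50 ± 0.25 (adjusted p = 6.13e-08). GSTU20, a glutathione S-transferase placed in the same pathway, had 10.96 and 10.98 at day 7, against 11.78 and 11.84 at day 3, a smaller fall of 0.84 on the log2 scale (adjusted p = 3.09e-06). UGT74B1, a glucosyltransferase late in glucosinolate synthesis, fell by 0.60 ± 0.13, a call that was lost without day 3 replicate 2 or day 7 replicate 2. Of 4 measured genes in the list for aliphatic glucosinolate synthesis, 2 fell, BCAT4 and GSTU20, where 2.71% of all genes fell, with a list median of -0.57 against -0.002 over all probe sets. The other members, AOP1 at -0.30 and AOP3 at 0.31, were not called.

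Glucosinolate breakdown and the endoplasmic reticulum bodies that store its enzymes had 3 of 6 measured members lower, again against 2.71% of all genes, with a list median of -0.49. PYK10, the beta-glucosidase that fills these bodies, had 7.54 and 7.94 at day 7, against 9.80 and 9.56 at day 3, a difference of -1.94 ± 0.23 (adjusted p = 9.55e-07). JAL22, a jacalin-like lectin, had 4.91 and 5.05 at day 7, against 6.31 and 6.15 at day 3, a difference of -1.25 ± 0.24 (adjusted p = 0.000901). In neither gene did the 2 days overlap, which the naming rule required of PYK10. NAI2, which builds the bodies, fell by 0.58 with an adjusted p of 0.0464, and the call was lost when any 1 of the 4 arrays was left out. NAI1, the factor that switches on these genes, differed by -0.07 and JAL23 by 0.62, neither called. Among 21 genes with beta-glucosidase symbols or synonyms, a group that does not hold PYK10, 5 were called where 4.24% of all genes were: BGLU33 (-1.92), BGLU45 (-1.13), BGLU46 (-0.99) and BGLU47 (-0.92) fell and BGLU28 rose by 0.41. The calls of BGLU33 and BGLU47 were lost without single arrays, at -1.74 without either day 3 replicate 1 or day 7 replicate 2 for BGLU33, and between -0.97 and -0.80 without day 3 replicate 1, day 3 replicate 2 or day 7 replicate 1 for BGLU47.

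Other large falls lay outside the glucosinolate lists. The gene scpl31, a serine carboxypeptidase-like protein, had 5.71 and 5.29 at day 7, against 8.23 and 8.42 at day 3, a difference of -2.83 ± 0.37 (adjusted p = 4.82e-06). It was 1 of 3 called among 29 serine carboxypeptidase-like proteins, all 3 lower, where 2.71% of all genes fell, although the calls of the other two, scpl48 and SCPL45, were lost without single arrays. MT1C, a metallothionein, had 9.35 and 8.99 at day 7, against 10.93 and 10.99 at day 3, a difference of -1.78 ± 0.16 (adjusted p = 1.1e-08). ZIP6, of a family of metal transporters, had 6.62 and 6.61 at day 7, against 8.14 and 7.93 at day 3, a difference of -1.42 ± 0.12 (adjusted p = 3.96e-09). In all 3 genes the arrays of the 2 days were separate, as the naming rule required, and in ZIP6 the day 7 arrays were almost equal. ATSBT5.2, a subtilisin-like protease, fell by 1.93 ± 0.27 and PMEAMT, a methyltransferase that makes phosphocholine for membrane lipids, by 1.38 ± 0.16. AT5G59330 had 7.79 and 8.14 at day 7, against 10.77 and 10.53 at day 3, a difference of -2.68 ± 0.21 (adjusted p = 1.54e-09). AT1G49310 fell by 2.02 ± 0.41, and its adjusted p was 0.0777 without day 3 replicate 2. The largest fall of all was on probe set 254098_at, which lists no gene: it had 6.11 and 6.62 at day 7, against 10.50 and 10.30 at day 3, a difference of -4.03 ± 0.51 (adjusted p = 3.34e-06). Its day 0 levels were 5.59 and 6.22, so day 3 was the high point of its course. The largest rise was on probe set 267460_at, also without a gene, at 3.51 ± 0.24.

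**Figure D3:**
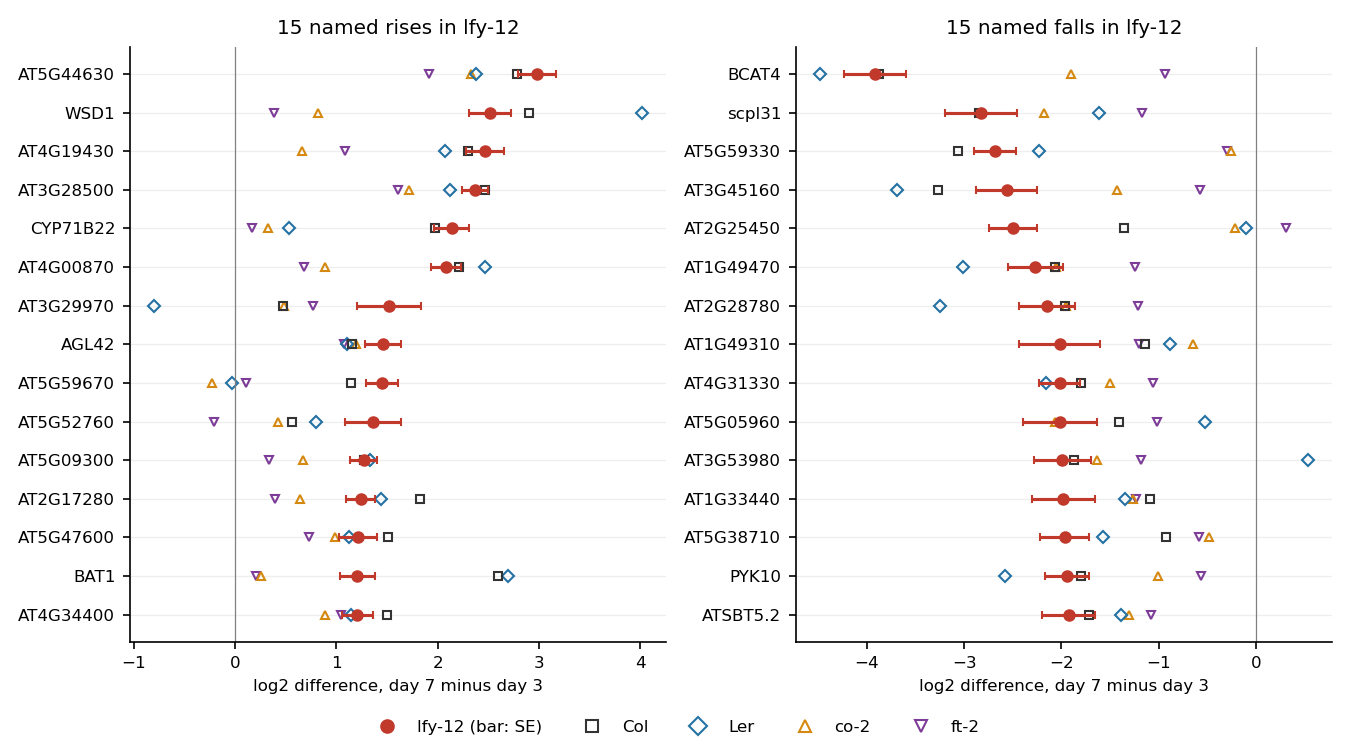
The log2 difference of day 7 minus day 3 is plotted for the 15 largest rises (left) and the 15 largest falls (right) of lfy-12, with lfy-12 as filled red circles with limma standard errors and Col, Ler, co-2 and ft-2 as open symbols. BCAT4 fell by 3.92 in lfy-12 and by 3.88 in Col, while CYP71B22 rose by 2.14 in lfy-12 and by 0.53 in Ler.

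Among regulators of flowering, few members were matched by symbol, and some rose while others fell. FD, the partner of FT, had 7.38 and 7.49 at day 7, against 7.07 and 6.63 at day 3, a difference of 0.59 ± 0.14 (adjusted p = 0.00682). Its call was lost without day 3 replicate 2 (0.36) or day 7 replicate 2 (0.53). UFO, an F-box partner of LFY, differed by 0.37 ± 0.17 (adjusted p = 0.31), and PUCHI, which helps set floral fate, by 0.15. Neither was called. AGL71, a relative of AGL42 and SOC1, rose by 0.55 ± 0.11 (adjusted p = 0.0513 without day 7 replicate 1), and AGL72 differed by 0.32, which was not called. AGL19, a floral promoter of the MADS-box family, had 4.57 and 5.05 at day 7, against 5.59 and 5.93 at day 3, and so fell by 0.95 (adjusted p = 7.97e-05). SMZ, an AP2-type floral repressor, had 5.31 and 5.57 at day 7, against 6.48 and 6.27 at day 3, a difference of -0.94 ± 0.19 (adjusted p = 0.0531 without day 7 replicate 1). In both falls the days did not overlap. Its relatives in repression, SNZ at -0.15 and ATC at -0.06, were not called, nor were GI at -0.17 and AGL24 at -0.07. Over all 42 MADS-box genes measured, 2 rose, 2 fell and 38 were not called, against 1.53% higher and 2.71% lower over all genes.

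Of 7 measured genes of floral organ development, SPT, a bHLH factor of carpel margins, rose and NUB, a zinc finger factor of stamens and carpels, fell. Over all genes, 1.53% rose and 2.71% fell. SPT had 7.83 and 7.81 at day 7, against 7.16 and 7.20 at day 3, a difference of 0.64 ± 0.13 (adjusted p = 0.00141). NUB had 6.90 and 6.75 at day 7, against 7.55 and 7.34 at day 3, a difference of -0.62 ± 0.12 (adjusted p = 0.000976). The days were separate in both genes, and neither call was lost without 1 array. ROXY1, JAG, EMS1, AMS and SPL/NZZ, which act in petals, lateral organs, anthers and ovules, differed by between -0.09 and 0.07 and were not called.

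**Figure D4:**
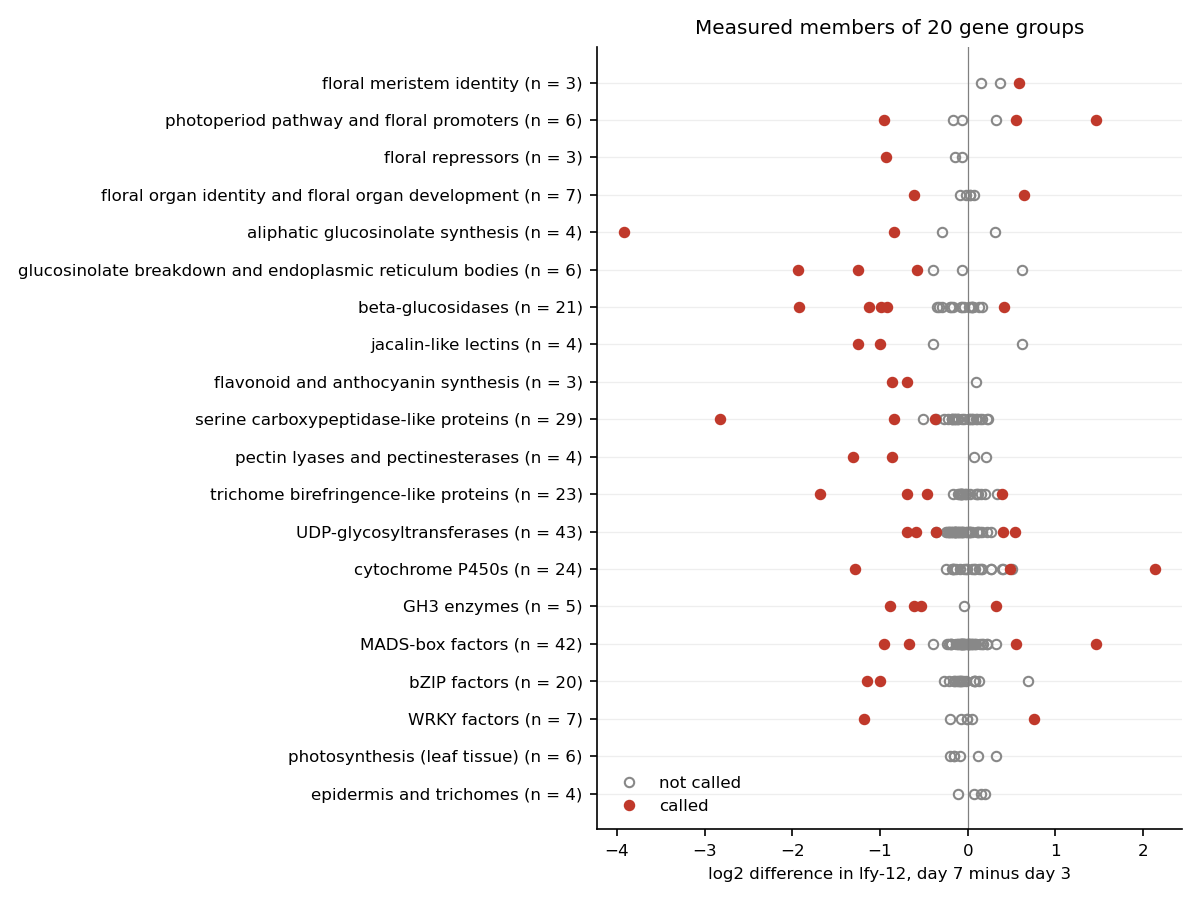
Each point is 1 measured gene of the group named at the left, placed by its log2 difference in lfy-12, day 7 minus day 3; filled red points were called and open grey points were not. Called members of the groups for glucosinolates, jacalin-like lectins, flavonoids and pectin lie to the left of 0, and no member of the photosynthesis or epidermis groups was called.

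Pigment and cell wall genes were among the other falls. For the groups in this paragraph, the shares over all genes were 1.53% higher and 2.71% lower. DFR, which makes the precursors of anthocyanins, had 9.49 and 9.38 at day 7, against 10.23 and 10.36 at day 3, a difference of -0.86 ± 0.15 (adjusted p = 0.000308). UF3GT, a flavonoid glycosyltransferase, differed by -0.70 ± 0.17, a call lost without day 3 replicate 1, day 3 replicate 2 or day 7 replicate 2, and BAN, of the tannin branch, by 0.10, which was not called. The pectin methylesterases PME61 and PMEPCRF fell by 1.31 ± 0.22 and 0.86 ± 0.15, and the other 2 measured members of that group were not called. TBL36, of the family whose members acetylate cell wall polysaccharides, had 6.85 and 6.75 at day 7, against 8.33 and 8.63 at day 3, a difference of -1.68 ± 0.28 (adjusted p = 0.000156). Of the 23 measured members of that family, 3 fell, TBL36 among them, and 1 rose, TBL39 (0.39). The call of TBL39 was lost without day 3 replicate 2 or day 7 replicate 1. Of 10 xyloglucan endotransglucosylases, which remodel the cell wall, XTH16 rose by 0.52 and XTH32 fell by 0.33, both with calls that leaving out single arrays ended.

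Enzymes that attach sugars or amino acids to hormones and phenolics moved in both directions. UGT84A3 and UGT84A1, which glucosylate hydroxycinnamates, rose by 1.03 ± 0.16 and 0.99 ± 0.18. UGT84A3 had 5.97 and 6.38 at day 7, against 5.09 and 5.20 at day 3, with no overlap. Of 5 measured GH3 enzymes, which join amino acids to auxin and related acids, 1 rose and 3 fell, where 1.53% of all genes rose and 2.71% fell. WES1 fell by 0.61 ± 0.11 (adjusted p = 0.000432), while GH3.9 (-0.89) and GH3.17 (-0.53) fell and GH3.3 (0.33) rose with calls that leaving out single arrays ended. WES1 had 9.30 and 9.45 at day 7, against 9.96 and 10.02 at day 3. ARR15, a response regulator of cytokinin signalling, fell by 0.77 ± 0.15 and was not called without day 7 replicate 1 (-0.48). Among transcription factors, bZIP42 (-1.15) and WRKY47 (-1.18) fell, and WRKY53, a factor of leaf senescence, rose by 0.76 ± 0.17, a call lost without day 3 replicate 2 or day 7 replicate 2. The GH3, UGT84, TBL, response regulator and serine carboxypeptidase-like groups were chosen after their values had been seen.

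Of the markers of tissues that the apex sample could hold, 1 was called. None of 6 leaf photosynthesis genes was called, nor any of 2 genes of the shoot meristem (CLV3 at 0.14 and PHV at -0.13), 4 stomatal and trichome regulators, 2 root genes or 3 genes of cell division. With 4.24% of all genes called, lists of this size would hold few or no calls. The summed signal of the photosynthesis genes was 13.60 and 13.62 (log2) at day 7, against 13.74 and 13.79 at day 3, so day 7 was lower by a small margin on both arrays. The shoot meristem sum was 9.84 and 9.85 at day 7, against 10.01 and 9.91 at day 3, and that of organ initiation and polarity 9.83 and 9.73 at day 7, against 9.93 and 9.90 at day 3, both also separate and lower. The shoot meristem sum holds only 2 genes, with mean day 7 levels of 5.79 and 9.76. It therefore follows the brighter one, PHV, whose difference was not called, while CLV3 differed in the other direction. The sums for the epidermis (8.87 and 8.84 at day 7, against 8.90 and 8.71 at day 3) and for roots (5.87 and 5.68 at day 7, against 5.96 and 5.86 at day 3) overlapped. Of 4 genes of organ initiation and polarity only YAB5 was called, at -0.39, and it was lost without day 3 replicate 1, day 7 replicate 1 or day 7 replicate 2. In an apex measured in bulk, fewer cells of a type and less RNA per cell cannot be told apart, and the part of tissue makeup in the falls above was not tested. Of 5 cold and drought genes none was called, and the thionin THI2.1 stood at 10.81 and 9.98 at day 7, against 8.95 and 9.37 at day 3, a difference of 1.24 ± 0.47 that was not called (adjusted p = 0.165).

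The arrays of day 5 lay between the other days for nearly all of the large changes. With each change from day 3 to day 7 set to 100%, the median day 5 position was 37.0% for the 65 rises over 2-fold (quartiles 21.5% and 49.1%) and 49.2% for the 209 falls (37.6% and 59.0%). In 63 of the 65 rises and 208 of the 209 falls the day 5 mean lay between the means of days 3 and 7. With day 5 replicate 1 alone the medians were 41.4% and 45.9%. WSD1, at 4.65 and 4.64 on the day 5 arrays, was still near its day 3 level, whereas AT2G25450 was already at 6.78 and 6.66. Tested as separate steps, 221 probe sets (0.972%) were called at day 5 against day 3 and 247 (1.09%) at day 7 against day 5, and both counts fell, to 50 and 81, without the mixed day 5 replicate 2. Of the 209 falls, 12 ended below the lower quartile of signals at day 7 (4.71), and 10 of the 65 rises started below that of day 3 (4.75).

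Most of the large changes of lfy-12 were also present in Columbia. On Col arrays, which share none with lfy-12, 1806 probe sets were called (7.94%), 927 higher (4.08%) and 879 lower (3.86%). Of the rises in lfy-12, 282 also rose in Col (66.4% of the lfy-12 rises and 30.4% of those in Col), and of the falls 450 also fell (59.7% and 51.2%). No probe set was called in opposite directions. Among changes of more than 2-fold in lfy-12, 53 of 65 rises and 186 of 209 falls were called the same way in Col. The 65 rises over 2-fold had a median difference of 1.24 in lfy-12 and 1.27 in Col, and the 209 falls -1.41 in lfy-12 and -1.24 in Col. Read the other way, the 206 falls over 2-fold of Col had a median of -1.32 in lfy-12 and -1.39 in Col, and the 116 rises of Col 0.79 in lfy-12 and 1.27 in Col. BCAT4 fell by 3.92 in lfy-12 and by 3.88 in Col, whereas AT2G25450 had -2.50 in lfy-12 and -1.36 in Col, AT5G38710 -1.97 in lfy-12 and -0.92 in Col, and AT1G33440 -1.98 in lfy-12 and -1.08 in Col. The difference between the genotypes was not called in any of these 4 genes, which does not show that they changed equally.

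**Figure D5:**
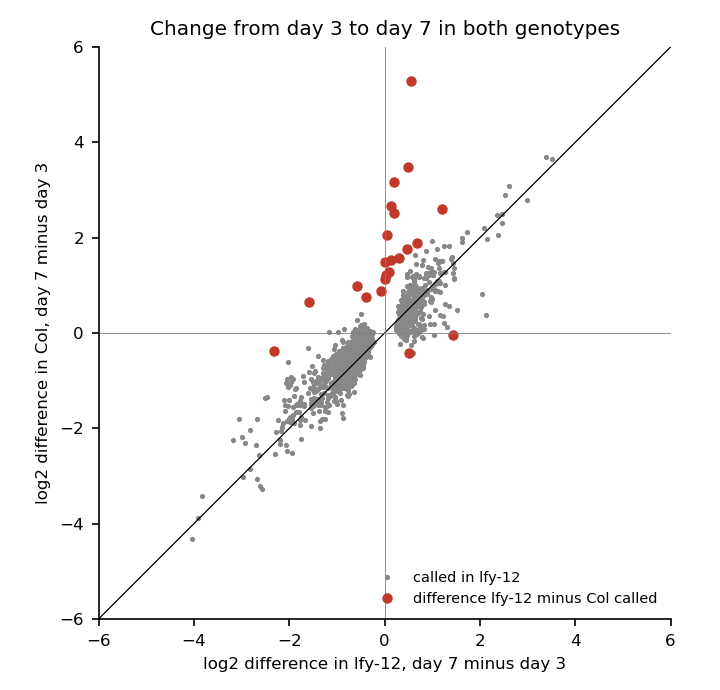
Each point is 1 probe set, placed by its log2 difference of day 7 minus day 3 in lfy-12 (horizontal) and in Col (vertical); grey points were called in lfy-12, red points are the 22 whose difference between the genotypes was called, and the line marks equal change. Most grey points lie along the line, and 20 of the 22 red points lie above it.

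The difference between the genotypes was called in 22 probe sets (0.0967%), 20 with a lower response in lfy-12 (0.0879%) and 2 with a higher one (0.00879%), and 1523 had an unadjusted p under 0.05. The count was 34, with 22 higher and 12 lower, without lfy-12 day 7 replicate 1, and 13, all lower, without Col day 7 replicate 2. Of the 8 genes among them, the 6 with the largest differences are given, all lower in lfy-12 than in Col. BAT1 was between 6.19 and 6.85 at day 7 in lfy-12 and between 7.66 and 8.06 in Col, from day 3 levels that were about equal, so its difference was -1.39 ± 0.24 (adjusted p = 0.00856). Leaving out replicate 2 of Col day 7, replicate 2 of lfy-12 day 3 or replicate 1 of lfy-12 day 7 ended the call of BAT1, as did fitting only the 16 arrays of lfy-12 and Col or only their 8 arrays of days 3 and 7. MSRB5, of the family that repairs oxidised methionine, had 8.45 and 7.87 at day 0 in lfy-12 and 7.78 and 7.81 in Col. At day 3 it stood lower in Col than in lfy-12, so the 2 changes started from unequal levels. In lfy-12 it fell to 5.06 and 4.97 at day 7, against 6.50 and 6.68 at day 3. Col had 6.62 and 5.72 at day 7, against 5.53 and 5.50 at day 3. That rise of 0.66 in Col was not called (limma adjusted p = 0.106). The difference of -2.23 ± 0.34 (adjusted p = 0.00161) remained called when each array was left out in turn.

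AT5G22430 differed by 0.01 in lfy-12, with 4.29 and 4.29 at day 7, against 4.22 and 4.33 at day 3, while Col had 5.70 and 5.94 at day 7, against 4.39 and 4.26 at day 3. Apart from Col at day 7, these levels were near background. The median of the bacterial control probe sets was 4.06 and 4.21 on the lfy-12 day 3 arrays. The filter on low values left this gene untested. The difference was -1.48 ± 0.23 (adjusted p = 0.00161) and was kept without each array in turn. SP1L2, of a family that directs growth through microtubules, had 5.23 and 5.22 at day 7 in lfy-12, against 5.80 and 5.79 at day 3, and 6.50 and 6.54 at day 7 in Col, against 5.43 and 5.63 at day 3 (difference -1.56 ± 0.26, adjusted p = 0.00381, or 0.0546 when only the 16 arrays of lfy-12 and Col were fitted). For the remaining genes, AT5G02230 (-1.30 ± 0.26) and AT1G02190 (-1.21 ± 0.23), the call was lost without any 1 of 6 of the 8 arrays of lfy-12 and Col at days 3 and 7, with the replicate block (adjusted p = 0.077 and 0.0902) and on the 16 arrays of lfy-12 and Col alone, and that of AT5G02230 also on their 8 arrays of days 3 and 7. AT1G02190 rose in lfy-12 too, by 0.67 ± 0.17 (not called without replicate 2 of day 3 or of day 7), and by 1.89 in Col.

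Set beside the other backgrounds, the 65 rises over 2-fold of lfy-12 had medians of 1.3 in Ler, 0.62 in co-2 and 0.42 in ft-2, and the 209 falls had medians of -1.71, -0.86 and -0.54 in the same order. These probe sets were chosen on the lfy-12 difference; read the other way, the 180 rises over 2-fold of Ler had medians of 0.56 in lfy-12 and 1.34 in Ler, and its 416 falls -0.87 in lfy-12 and -1.48 in Ler. The same call as in lfy-12 was made for 51 rises and 188 falls in Ler (2997 probe sets called, 13.2%), 28 and 113 in co-2 (378 called, 1.66%) and 22 and 28 in ft-2 (151 called, 0.664%). The difference in response between lfy-12 and these 3 genotypes was not tested, and they are in another background. AGL42 differed by 1.46 in lfy-12, the largest of the 5 genotypes, by 1.15 in Col and by 1.07 in ft-2, the smallest. WSD1 ranged more widely, at 2.52 in lfy-12, 2.90 in Col, 4.01 in Ler, 0.82 in co-2 and 0.38 in ft-2, and the value of lfy-12 is a lower bound. CYP71B22 rose by 2.14 in lfy-12, by 1.97 in Col and by a smaller 0.53 in Ler (limma adjusted p = 0.0392). It differed by 0.33 in co-2 and 0.17 in ft-2, neither called.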

How the data were processed

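Transcript levels of shoot apices were measured on 40 ATH1 arrays (total RNA, per the labels), 2 in each of 20 groups of genotype and day taken from the sample titles. The deposited table holds log2 signal per probe set, from 3.03 to 13.63; its scale was read from the range, and the scanner software, normalization and genome build are not given in the sources used here. No pseudocount or further scaling was applied, and 22746 probe sets remained after removal of 64 controls.

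Differences were fitted with limma 3.58.1 in R 4.3.3: a mean for each of the 20 groups over the 40 arrays (residual degrees of freedom, 20), with empirical Bayes with an intensity trend, two-sided, Benjamini-Hochberg over all probe sets, called at an adjusted p under 0.05. Errors beside differences are its standard errors. The smallest p that exact permutation of 4 arrays in 2 pairs allows is 0.333. The steps were tested on simulated data.

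Gene names came from the platform's gene list updated through RefSeq: 13513 probe sets list 1 gene, 503 several and 8730 none, and a gene with several probe sets was taken at the one with the highest mean. The naming rule took the 15 largest called rises and 15 largest called falls without overlap between days, up to 6 called differences from Col each way, measured members of gene lists, and up to 4 called members of each family. Of the lists, the SPL family, vascular tissue, pollen and tapetum, circadian clock and terpene synthesis had no member matched by symbol. This does not show that the arrays lack such genes, since only 1552 of 13350 genes carry a symbol other than the locus name. AT5G44630, a sesquiterpene synthase, is 1 of those without. Counts of measured members cover matched genes only. Families were matched on symbols and synonyms, and 3 list symbols that name another gene in RefSeq were dropped. The members, lists and comparisons were chosen with earlier results of these data known; further genes with a symbol, among the 20 largest called changes each way, were named after their values were seen. Alternatives tried were quantile normalization, median centring, a filter on low values, fits to fewer arrays, robust or untrended moderation, a replicate block and leaving out each array.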

Additional observations from a re-analysis of the deposited data

Results flagged for a closer look

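The change from day 3 to day 7 differed between lfy-12 and Col in 22 probe sets by the test of that difference itself. Among named genes the difference, lfy-12 minus Col, was -2.23 for MSRB5, -1.56 for SP1L2, -1.48 for AT5G22430, -1.39 for BAT1, -1.30 for AT5G02230 and -1.21 for AT1G02190, each with 2 arrays per group. Groups of 2 arrays were too small for a test of single samples that stand apart.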

How the results depend on the processing

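The replicate numbers did not pair the arrays, since the deviations of same-numbered lfy-12 arrays at days 7 and 3 correlated at -0.013; with the replicate block 1073 probe sets were called in lfy-12 instead of 1179. Leaving out 1 array gave 659 to 790 calls in lfy-12 (1222 without day 5 replicate 2 and day 0 replicate 2), 817 to 1689 in Col, 1884 to 2130 in Ler, 161 to 309 in co-2, 30 to 54 in ft-2 and 13 to 34 for the difference of lfy-12 and Col. That difference gave 11 calls with a filter on means under 5 and 12 on the 16 arrays of lfy-12 and Col. The step from day 3 to day 5 gave 72 calls without the arrays day 5 replicate 2 and day 0 replicate 2, 138 on the 8 lfy-12 arrays and, in an alternative chosen after seeing the data, 50 without day 5 replicate 2. The step from day 5 to day 7 gave 115, 160 and 81 in the same order. The larger direction turned for the difference of lfy-12 and Col without lfy-12 day 7 replicate 1 (22 higher, 12 lower), for co-2 without co-2 day 3 replicate 2 (187 higher, 122 lower), for ft-2 without ft-2 day 3 replicate 1 (26 higher, 28 lower) and for Col with quantile normalization (928 higher, 940 lower), with median centring (837 higher, 940 lower) and without Col day 3 replicate 1 (820 higher, 869 lower) or replicate 2 (395 higher, 422 lower). No named gene with a call in lfy-12 changed sign in that comparison. Several named genes without a call did, among them PUCHI (-0.0035 to 0.31), CLV3 (-0.01 to 0.28) and NAI1 (-0.19 to 0.05). Of the 30 largest named changes, 27 kept their call wherever they were tested, and AT3G29970, AT5G52760 and AT1G49310 did not; AT3G29970 also lost it on the 8 or the 4 lfy-12 arrays alone. Of these 30, the filter left AT5G59670, AT5G52760 and AT1G49310 untested, and it also left out AT5G22430 among the differences from Col. With 2 arrays per group, small changes of dim probe sets are those least well measured here.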
